A study of Mus musculus with 8 samples.

Results

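The clustered histone genes are the protein-coding genes whose mouse symbols begin with Hist1h, Hist2h, Hist3h or Hist4h, and they were chosen by symbol alone. The annotation holds 67 of them, against 43346 genes in the deposited count table. Of these, 64 matched a row of the table by gene identifier, and 53 had enough counts to be tested among 15511 tested genes. The rows for Hist1h2bh, Hist1h2bm and Hist2h2bb were not matched and are not analysed here. By product there are 6 genes for the linker histone H1, 18 for H2A, 18 for H2B, 12 for H3 and 13 for H4.

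RNA was sequenced from osteocyte-enriched fractions of 3 bones of C57BL/6 mice aged 12 weeks. Osteocytes are the cells that sit inside mineralised bone. The 8 libraries are 3 from the femur, a long bone, 3 from the frontal bone and 2 from the parietal bone, the last pair both flat bones of the skull vault (calvaria), and no genotype, agent or treatment was given for any of them. Libraries carry the numbers 1, 2 and 4 that their labels give. Nothing states that libraries of a bone are from different animals, and tests therefore weigh differences against a spread among libraries that may be technical.

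Histones are the proteins around which DNA is wound. H2A, H2B, H3 and H4 form the core of the nucleosome, and H1 binds the linker DNA between cores. The clustered genes are known for being used mainly while a cell copies its DNA in S phase, when new chromatin needs new histones. Their messenger RNAs typically carry no poly(A) tail and end in a short stem-loop, which the stem-loop binding protein recognises, and they are degraded when DNA synthesis stops. Osteocytes themselves are known as non-dividing cells. Whether poly(A)-tailed RNA was selected for these libraries is not given in the sources used here.

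The stem-loop is the sequence feature that sets these genes apart, so its forms are shown first, 5′ to 3′ in DNA letters, with the 4 bases of the loop in capitals and the paired 6-base arms in lower case. Annotated transcripts (GENCODE M21, GRCm38) were searched for the histone stem-loop pattern on the transcript strand, and only matches with fully paired arms were kept.
Form 1: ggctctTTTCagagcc
Form 2: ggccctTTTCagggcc
Form 3: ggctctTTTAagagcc
Form 4: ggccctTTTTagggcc
Form 5: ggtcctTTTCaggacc
Form 6: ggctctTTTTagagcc
A stem-loop was found in 44 of the 67 clustered genes and in 5 other protein-coding genes, which makes 0.222% of the 22028 protein-coding genes searched. Form 1 was the commonest, in 26 genes, of which 3 encode H1, 10 H2A, 8 H2B and 5 H3. All 7 genes with form 2, both genes with form 4 and both with form 5 encode H4, so the H4 genes used other arms than the rest. Form 3 was found in 6 genes, for H1, H2B and H3, and form 6 in Hist2h2ac alone, chosen for mention after its sequence was seen. The 5 other genes were H2afx, H2bfm, Nova2, Syncrip and Trim17, of which H2afx encodes the variant H2A.X and Trim17 overlaps Hist3h2a. The 23 clustered genes with no match may only have annotated ends that stop short of one.

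The genes lie in 4 clusters. The Hist1 cluster holds 54 of them at chr13:21715763-23934851, Hist2 holds 10 at chr3:96219865-96270132, Hist3 holds 2 at chr11:58948920-58956830, and Hist4h4 stands alone at chr6:136801553-136804415 (GRCm38). RefSeq promoters on GRCm38.p6, from 250 bases before to 50 after the start, were found for 61 of the 67. One promoter per class is shown, 5′ to 3′ along the gene, with the searched motifs in capitals on either strand. Each is of the tested member with the highest mean CPM of its class among those with a promoter.
Hist1h1c, chr13:23738557-23738856, plus strand: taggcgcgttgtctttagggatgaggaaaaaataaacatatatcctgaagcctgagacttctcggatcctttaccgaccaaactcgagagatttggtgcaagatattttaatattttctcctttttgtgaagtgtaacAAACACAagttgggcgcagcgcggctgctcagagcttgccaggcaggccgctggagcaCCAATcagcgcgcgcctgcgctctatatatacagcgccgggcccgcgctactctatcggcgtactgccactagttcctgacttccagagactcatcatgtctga
Hist1h2ae, chr13:23571171-23571470, minus strand: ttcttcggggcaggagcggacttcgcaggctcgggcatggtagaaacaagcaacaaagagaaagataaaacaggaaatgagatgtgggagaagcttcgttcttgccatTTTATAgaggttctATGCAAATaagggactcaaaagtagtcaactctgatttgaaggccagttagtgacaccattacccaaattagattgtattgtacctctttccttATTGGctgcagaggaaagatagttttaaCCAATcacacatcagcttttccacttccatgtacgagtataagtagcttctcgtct
Hist1h2bj, chr13:22042948-22043247, plus strand: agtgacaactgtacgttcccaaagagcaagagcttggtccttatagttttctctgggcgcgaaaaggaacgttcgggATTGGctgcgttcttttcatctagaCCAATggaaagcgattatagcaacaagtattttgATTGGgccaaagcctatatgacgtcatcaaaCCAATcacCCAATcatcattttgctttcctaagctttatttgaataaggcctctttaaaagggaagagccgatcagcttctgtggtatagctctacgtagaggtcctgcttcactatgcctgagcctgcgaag
Hist1h3c, chr13:23745472-23745771, minus strand: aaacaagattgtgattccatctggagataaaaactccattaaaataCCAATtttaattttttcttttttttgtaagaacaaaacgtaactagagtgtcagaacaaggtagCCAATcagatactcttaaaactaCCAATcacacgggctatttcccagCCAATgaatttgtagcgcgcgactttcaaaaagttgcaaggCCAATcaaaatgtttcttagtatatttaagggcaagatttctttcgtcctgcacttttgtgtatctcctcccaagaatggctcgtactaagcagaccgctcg
Hist1h4d, chr13:23581318-23581617, plus strand: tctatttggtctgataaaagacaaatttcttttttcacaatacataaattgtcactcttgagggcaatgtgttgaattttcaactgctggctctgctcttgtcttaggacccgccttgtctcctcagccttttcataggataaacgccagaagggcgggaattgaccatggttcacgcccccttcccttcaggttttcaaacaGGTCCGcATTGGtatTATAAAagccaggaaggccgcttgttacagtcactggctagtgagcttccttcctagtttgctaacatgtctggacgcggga
The CCAAT box, the TATA box (searched as TATAAA), the octamer (searched as ATTTGCAT), the H1 box (searched as AAACACA) and a core of H4 promoters (searched as GGTCCG) were sought on both strands, and none of these motifs contains another. CCAAT lay in 85.25% of the 61 promoters, against 37.41% of all 32851 RefSeq promoters of that length. It was in every H1, H2A, H2B and H3 promoter searched and in 3 of 12 H4 promoters. TATAAA lay in 57.38% against 13.62%. The octamer lay in 22.95% against 1.74%, and its 14 carriers were 7 H2A and 7 H2B genes. AAACACA lay in 14.75% against 7.18%, including 5 of the 6 H1 genes. GGTCCG lay in 21.31% against 8.25%, including 11 of 12 H4 genes. Windows of genes that start head to head overlap, so the same site can be counted for both genes. A match describes letters only.

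Facts of all libraries bear on what follows. Totals ran from 6259229 to 13461622 gene counts per library. Osteocyte markers such as Dmp1, Sost and Mepe took 2.33 to 4.60% of counts in the femur and 0.0768 to 0.144% in the calvaria, and 8 of 9 were called lower in the calvaria. Marker lists of blood-forming and immune cells moved the other way. Erythroid precursor markers took 1.19 to 2.90% of femur counts and 6.99 to 11.1% of calvarial counts (12 of 12 higher), granulocyte markers 1.78 to 4.65% and 6.74 to 9.05% (9 of 12 higher), and monocyte and macrophage markers 0.279 to 0.554% and 1.28 to 1.72% (7 of 9 higher). B lineage markers took 0.022 to 0.0319% and 0.0826 to 0.0996% (9 of 10 higher), T and NK cell markers 0.00495 to 0.00879% and 0.02 to 0.0272% (6 of 8 higher). All 6 endothelial markers were lower in the calvaria, with 0.0413 to 0.0483% and 0.0188 to 0.0243% of counts. Over all tested genes, 29.6% were called higher and 31.4% lower in the calvaria. The blood-forming and immune lists moved together with the histone genes, and the part of all these lists in the results below was not tested. In bulk RNA, more cells of a type and more RNA per cell cannot be told apart.

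Clustered histone RNA was higher in both calvarial bones than in the femur. The summed level of the 64 genes, in TMM-scaled CPM (counts of a gene relative to its library's scaled total), was 305, 408 and 493 CPM in the femur, 957, 887 and 971 in the frontal bone and 1131 and 998 in the parietal bone. Every calvarial library lay above every femur library, and the means were 402.1 ± 93.9 (SD, n = 3) in the femur and 988.8 ± 89.4 (SD, n = 5) in the calvaria, a ratio of 2.46. As a share of all gene counts this was 0.0284 to 0.0481% in the femur and 0.0962 to 0.11% in the calvaria.

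**Figure D1:**
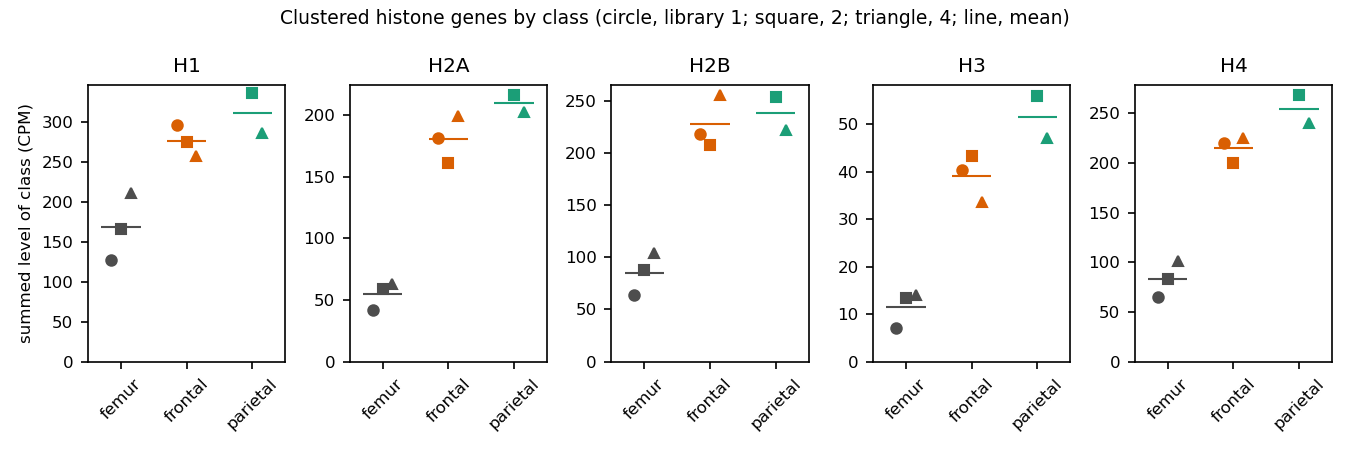
Summed level of each histone class in CPM (vertical axes from 0, one panel a class) in each of the 8 libraries by bone, with marker shapes for library numbers and lines for means. In every class the 3 femur libraries lie below all 5 calvarial libraries, and femur library 1 is the lowest.

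Gene by gene, calvaria (the mean of frontal and parietal) was compared with femur by edgeR's quasi-likelihood test over all 15511 genes, with a gene called at a Benjamini-Hochberg adjusted p under 0.05. Of the 53 tested genes 50 were called higher and 0 lower, where 29.6% of all tested genes were called higher and 31.4% lower, 61% in all. At an unadjusted p under 0.05, 0 were lower by edgeR, DESeq2 or limma-voom. By edgeR 33% of all tested genes were lower at that threshold. The median log2 fold change was 1.92, against 0.01 over all tested genes, and the range was 0.29 to 2.90. A filter on low counts admits some genes only through the bone where they are high. The 39 genes that would pass on the femur libraries alone are free of this. Of them 38 were called higher, with a median of 1.87. Of the 14 that passed only with the calvaria, 12 were called.

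The 3 genes not called were Hist1h1c, Hist2h3c2 (0.92 ± 0.44, adjusted p = 0.0873) and Hist1h4j (0.94 ± 0.53, adjusted p = 0.147), the last pair with 107 and 82 counts over all libraries. In 48 of the 53 genes every calvarial library lay above every femur library, which held for 26% of all tested genes. The 5 exceptions were Hist1h1c, Hist1h3f, Hist2h3c2, Hist1h4j and Hist1h4k.

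When libraries were scaled to the spike-in RNAs, 0 histone genes were called in any comparison with the femur. At an unadjusted p under 0.05, 7 were higher for calvaria against femur. Of all tested genes, 0.226% were called higher and 19.9% lower for calvaria against femur with this scaling. These shares were 0.2 and 7.25% for frontal and 0.103 and 10.8% for parietal against femur. The 0 higher calls thus lie near the share of all genes. The median of all genes then moved to -0.83 and that of the histone genes to 1.12. Spike-ins took 0.0286 to 0.176% of counts and varied within each bone. The calls therefore hold relative to the other genes of a library.

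**Figure D2:**
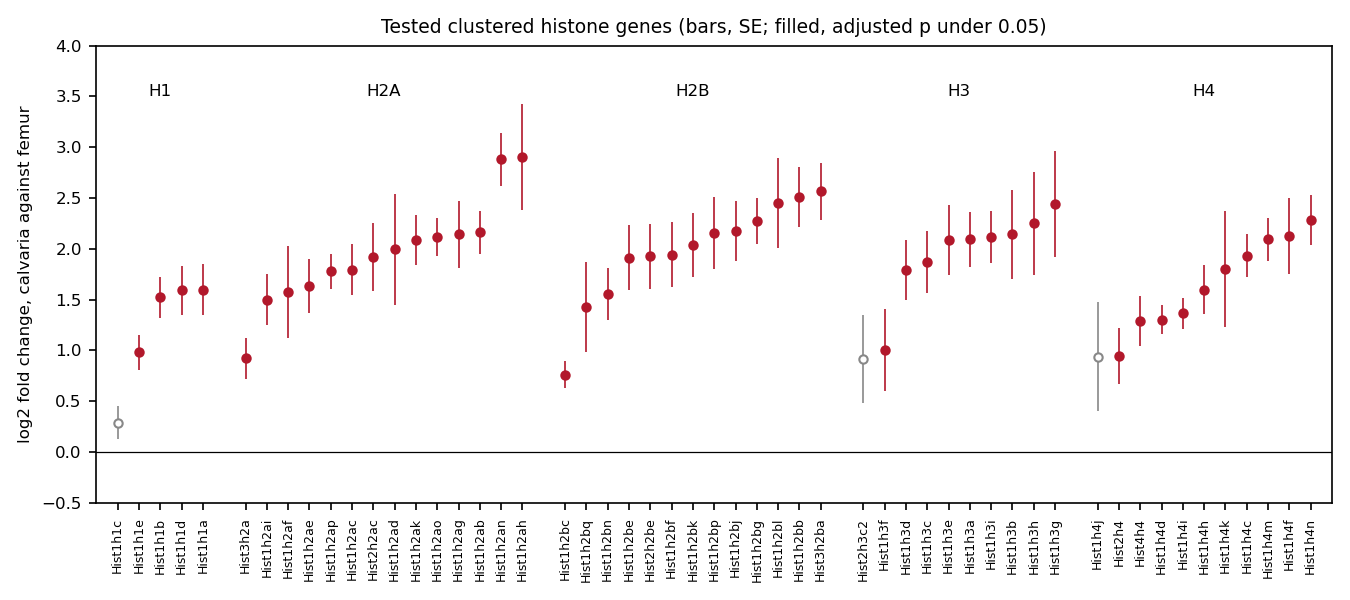
Log2 fold change of calvaria against femur (vertical axis, with standard errors) for the 53 tested genes, ordered within each class. With TMM scaling all lie above 0, from 0.29 for Hist1h1c to 2.90 for Hist1h2ah, while with spike-in scaling (not drawn) Hist1h1c, Hist1h2bc and Hist2h3c2 do not, and the 3 open points did not pass the test.

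H1 genes encode the linker histones. Together they stood at 127, 166 and 211 CPM in the femur, 297, 275 and 257 in the frontal bone and 337 and 286 in the parietal bone, a ratio of 1.73. Of the 5 tested, 4 were called higher (median log2 fold change 1.52). Hist1h1c, one of the most widely used somatic H1 variants, was the most abundant clustered gene by CPM, with 82.4, 97 and 122 CPM in the femur, 142, 112 and 97 in the frontal bone and 139.7 and 119 in the parietal bone. Its bones overlapped, since frontal libraries 2 and 4 and parietal library 4 lay below femur library 4, and its change did not pass the test (0.29 ± 0.16, adjusted p = 0.137). Without femur library 4 it was called, at 0.45 (adjusted p = 0.0342).

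In the other somatic H1 genes all calvarial libraries lay above the femur libraries. Hist1h1e stood at 21.5, 31.2 and 39.8 CPM in the femur, 54.1, 59.3 and 53.4 in the frontal bone and 70.6 and 64 in the parietal bone, and rose (0.98 ± 0.18, adjusted p = 0.000479). Hist1h1b stood at 14.1, 19.3 and 28.1 CPM in the femur, 57.2, 57.6 and 64.9 in the frontal bone and 66.3 and 51.5 in the parietal bone (1.52 ± 0.20, adjusted p = 5.02e-05). The lowest calvarial value of Hist1h1b lay well above its highest femur value. Hist1h1d stood at 6.53, 14.1 and 16.1 CPM in the femur, 32.3, 36.5 and 30.3 in the frontal bone and 46.9 and 38.7 in the parietal bone (1.59 ± 0.24, adjusted p = 0.000136). Hist1h1a, the least abundant of the tested H1 genes, stood at 2.24, 3.68 and 5.37 CPM in the femur, 10.6, 9.94 and 11.8 in the frontal bone and 13.1 and 12.1 in the parietal bone (1.60 ± 0.25, adjusted p = 0.000186). For both, the highest femur library was under the lowest calvarial library. Hist1h1t, the testis H1, had 10 counts over all libraries and was not tested.

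The make-up of clustered histone RNA was also set out by bone. H1 made up 41.6, 40.5 and 42.9% of the summed clustered histone CPM in femur libraries 1, 2 and 4, and 26.5 to 31% in the calvarial libraries, with no overlap. Hist1h1c alone made up 23.8 to 27% in the femur and 9.99 to 14.8% in the calvaria. The summed CPM of core histone genes per CPM of H1 was 1.33 to 1.47 in the femur and 2.23 to 2.77 in the calvaria. Without Hist1h1c that ratio was 3.14 to 3.98 in the femur and 3.75 to 4.45 in the calvaria, and the bones overlapped. These sums were not tested, and CPM does not adjust for transcript length.

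**Figure D3:**
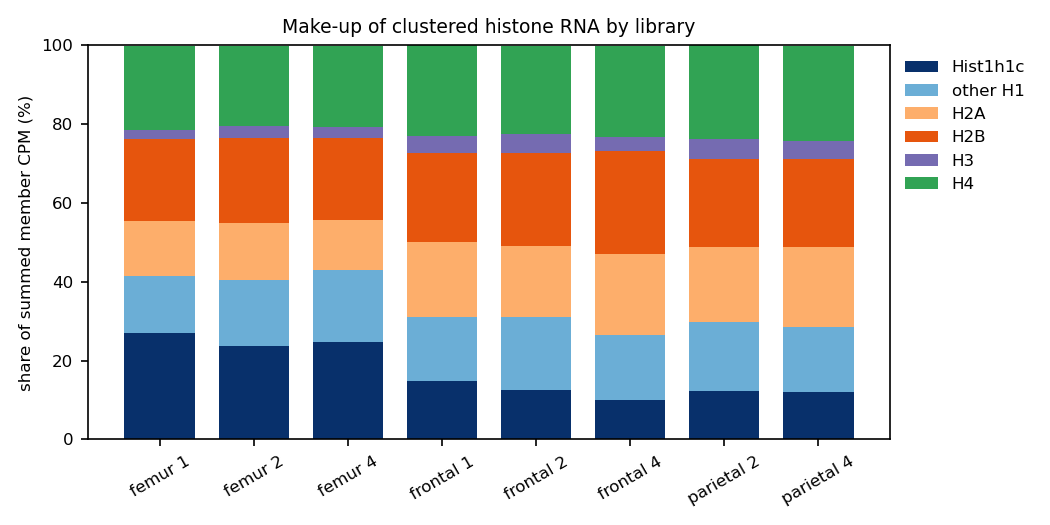
Share of the summed clustered histone CPM (vertical axis, %) taken by Hist1h1c, the other H1 genes and each core class in each library. Hist1h1c takes 23.8 to 27% in the femur and 9.99 to 14.8% in the calvaria.

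H2A genes stood together at 42.1, 58.6 and 62.8 CPM in the femur, 182, 162 and 199 in the frontal bone and 216 and 203 in the parietal bone, a ratio of 3.53. All 14 tested H2A genes were called higher (median 1.96), and in all 14 the calvarial libraries lay above the femur libraries. Hist1h2ae had the highest mean CPM of the class, with 8.94, 18.9 and 14.4 CPM in the femur, 38.2, 33.9 and 65.3 in the frontal bone and 43.9 and 41.9 in the parietal bone (1.63 ± 0.27, adjusted p = 0.00024). Frontal library 4 was the highest of its calvarial libraries. Hist1h2ap stood at 7.91, 8.5 and 11 CPM in the femur, 30.1, 25 and 31.6 in the frontal bone and 32.9 and 35.8 in the parietal bone (1.78 ± 0.17, adjusted p = 4.57e-06). Hist1h2ao stood at 5.33, 6.99 and 7.0 CPM in the femur, 28.8, 20.8 and 27 in the frontal bone and 33.8 and 29.1 in the parietal bone (2.12 ± 0.19, adjusted p = 2.31e-06). Femur libraries 2 and 4 of Hist1h2ao lay close together, and the parietal libraries were its highest. Hist1h2an stood at 1.03, 2.08 and 1.87 CPM in the femur, 9.44, 12.6 and 10.2 in the frontal bone and 16.5 and 13.7 in the parietal bone (2.88 ± 0.26, adjusted p = 2.65e-06). Hist1h2ab stood at 2.06, 3.21 and 3.27 CPM in the femur, 10.6, 10.6 and 12.2 in the frontal bone and 15.5 and 15.2 in the parietal bone (2.16 ± 0.21, adjusted p = 5.18e-06). In both genes every calvarial library lay at more than 3 times the highest femur library.

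Values of single H2A genes carry added uncertainty from shared sequence. A median of 73.7% of the 37-base words of an H2A transcript, the length of a read, also occurred in the annotated transcripts of another clustered histone gene, against 2.1% for H1. All 18 H2A genes overlap exons of another annotated gene, 24 of the 67 do so in all, and without a stated strand setting their reads cannot be told apart. When the 11 H2A genes with coding sequences at least 97% alike were summed to 1 feature, that feature rose by 1.90 ± 0.16 (adjusted p = 1.96e-06). Over the whole family, near-identical genes summed gave 26 tested features, of which 24 were higher, beside 29% of everything tested in that fit. The 37 tested genes free of overlaps had 34 called higher and a median of 1.93. The 12 tested genes with under 25% shared words had 11 called higher and a median of 1.56.

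H2B genes stood together at 63.8, 87.9 and 104 CPM in the femur, 218, 208 and 256 in the frontal bone and 253 and 222 in the parietal bone, a ratio of 2.72. All 13 tested were called higher (median 2.03). Hist1h2bc was by far the most abundant, with 47.4, 53.2 and 62 CPM in the femur, 99.4, 80.5 and 94.5 in the frontal bone and 99.7 and 85.5 in the parietal bone, and had the smallest change of the class (0.76 ± 0.13, adjusted p = 0.000397). After each library's trend on gene length and GC content was removed, its change was 0.02 (adjusted p = 0.885). Hist2h2be stood at 2.06, 7.65 and 6.53 CPM in the femur, 20.2, 22.2 and 27.5 in the frontal bone and 15.9 and 24 in the parietal bone (1.93 ± 0.32, adjusted p = 0.00027). Hist1h2bj stood at 2.06, 4.06 and 6.65 CPM in the femur, 17.4, 16.8 and 23.2 in the frontal bone and 22.2 and 18.8 in the parietal bone (2.18 ± 0.29, adjusted p = 5.49e-05). In both genes the femur spread was wide for its level, with library 1 the lowest. Hist1h2bg stood at 2.75, 4.25 and 3.85 CPM in the femur, 15.1, 15.3 and 20.5 in the frontal bone and 21.6 and 15.9 in the parietal bone (2.27 ± 0.23, adjusted p = 5.92e-06). Hist3h2ba stood at 1.2, 3.4 and 3.62 CPM in the femur, 14.7, 17.6 and 20.2 in the frontal bone and 18 and 15.1 in the parietal bone (2.56 ± 0.28, adjusted p = 1.26e-05). Hist3h2ba had the largest change of the tested H2B genes, and lies on chromosome 11 away from the large cluster.

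H2A and H2B genes often sit head to head and share the DNA between their starts. There were 13 pairs of clustered genes whose divergent starts lay within 1000 bases, and 12 of them joined an H2A to an H2B gene, with 176 to 306 bases between the starts. The window shown for Hist1h2ae is such a case, since its first 75 bases lie inside the Hist1h2bg transcript, which runs the other way. In all 10 H2A and H2B pairs with both genes tested, both were called higher. This follows from the calls of all 14 tested H2A and all 13 tested H2B genes, and says nothing on pairing. The log2 fold changes of partners differed by a median of 0.67, and by at most 1.04, for Hist1h2ac (1.80) and Hist1h2bc (0.76). Gaps between genes that are not partners were not worked out.

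H3 genes had the lowest sum of the 5 classes, with 7.05, 13.4 and 14 CPM in the femur, 40.4, 43.3 and 33.6 in the frontal bone and 55.9 and 47 in the parietal bone, a ratio of 3.83. Of the 10 tested, 9 were called higher (median 2.09). Hist1h3c stood at 0.860, 2.64 and 1.98 CPM in the femur, 5.86, 6.12 and 6.6 in the frontal bone and 9.1 and 7.08 in the parietal bone (1.87 ± 0.31, adjusted p = 0.000235). Hist1h3e stood at 1.2, 2.08 and 1.28 CPM in the femur, 5.26, 7.46 and 3.79 in the frontal bone and 10.1 and 6.01 in the parietal bone (2.09 ± 0.34, adjusted p = 0.000254). Hist1h3i stood at 1.38, 1.51 and 1.17 CPM in the femur, 4.66, 5.16 and 4.21 in the frontal bone and 7.72 and 7.18 in the parietal bone (2.12 ± 0.26, adjusted p = 2.46e-05). In these 3 genes parietal library 2 was the highest library. Hist1h3a stood at 1.03, 1.32 and 1.52 CPM in the femur, 5.86, 6.4 and 4.92 in the frontal bone and 5.04 and 6.01 in the parietal bone (2.09 ± 0.27, adjusted p = 4.12e-05). Hist1h3d stood at 0.860, 1.23 and 1.63 CPM in the femur, 4.42, 3.44 and 4.07 in the frontal bone and 4.66 and 5.24 in the parietal bone (1.79 ± 0.29, adjusted p = 0.000245). In all 5 genes the femur libraries lay below all calvarial libraries. The call of Hist1h3f (1.00, adjusted p = 0.0498) was lost in 11 of the 17 alternatives other than spike-in scaling, among them each of leaving out femur library 1 (0.76, adjusted p = 0.162) and frontal library 1 (0.84, adjusted p = 0.104). All single H3 genes rest on few reads, from 97 to 402 counts over the 8 libraries.

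H4 genes stood together at 65.2, 82.9 and 101 CPM in the femur, 219.8, 199.7 and 225 in the frontal bone and 269 and 240.3 in the parietal bone, a ratio of 2.78. Of the 11 tested, 10 were called higher (median 1.60). Averaged over 3 femur and 5 calvarial libraries, Hist1h4d had the highest level per kilobase of transcript of the clustered genes, 77.7 CPM per kb, ahead of Hist1h1c (73) and Hist1h2bc (67.3). It led in the frontal (97.7) and parietal bone (103), while in the femur it stood at 40.6 CPM per kb, behind Hist1h1c (64.4) and Hist1h2bc (46.9). It stood at 37, 46 and 55.5 CPM in the femur, 116, 101 and 116 in the frontal bone and 122 and 113 in the parietal bone (1.30 ± 0.14, adjusted p = 1.25e-05). Hist1h4i stood at 9.46, 8.97 and 9.8 CPM in the femur, 23.4, 19.4 and 22.8 in the frontal bone and 28.1 and 25.6 in the parietal bone (1.36 ± 0.15, adjusted p = 1.47e-05). In both genes the highest femur library lay far below the lowest calvarial library. Hist1h4c stood at 3.44, 5.66 and 6.88 CPM in the femur, 19.4, 18 and 20.1 in the frontal bone and 24 and 21 in the parietal bone (1.93 ± 0.21, adjusted p = 1.26e-05). Hist1h4m stood at 3.78, 4.44 and 6.3 CPM in the femur, 16.4, 18.2 and 19.1 in the frontal bone and 27.5 and 21.2 in the parietal bone (2.09 ± 0.21, adjusted p = 5.98e-06). Hist1h4n stood at 2.41, 2.46 and 4.43 CPM in the femur, 12.9, 12.6 and 11.4 in the frontal bone and 21.6 and 16.2 in the parietal bone (2.29 ± 0.25, adjusted p = 1.04e-05). Hist1h4m and Hist1h4n have near-identical coding sequences, and summed they rose by 2.16 ± 0.20 (adjusted p = 4.59e-06). The call of Hist1h4k (1.80 ± 0.57, adjusted p = 0.0167, 76 counts) was lost without femur library 2 (1.59, adjusted p = 0.0744), femur library 4 (1.55, adjusted p = 0.0638) or parietal library 2 (1.45, adjusted p = 0.0825).

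Of the 11 matched genes that were not tested, 5 had a few counts over all libraries: Hist1h4a 58, Hist1h2br 26, Hist1h1t 10, Hist1h4b 10 and Hist2h2ab 8 counts. The other 6 had 0 counts in every library, which over 74429904 counts allows up to 0.0403 CPM of reads assigned to them (3 counts, counting error only). Among these, Hist1h2aa and Hist1h2ba are known as testis histones. Hist2h2aa1 and Hist2h2aa2 share 89.45 and 100% of their 37-base words with other clustered histone transcripts, Hist2h3b 80.31%, Hist1h2ba 41.38% and Hist2h3c1 35.22%. Hist1h2aa shares 8.47% and overlaps an exon of Gm44344 on the other strand. How reads with more than one match were counted is not given in the sources used here, so a 0 does not bound the RNA of these 6 genes.

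Clustered genes differ in where their annotated transcript ends. In 22 of them the longest annotated end lies under 100 bases past the stem-loop (at most 74), and in 22 it continues at least 100 bases past it (at least 151), in 15 of those with an AATAAA or ATTAAA signal for a poly(A) tail after the stem-loop. The 18 tested genes that end near the stem-loop rose by 1.60 to 2.51 (median 2.11), and all 18 were called higher. Of the 19 tested genes that continue, 16 were called, and values ran from 0.29 to 2.56 (median 1.36). The 16 tested genes without a stem-loop were all called, with a median of 1.86. Summed CPM was 4.14 times as high in the calvaria for the genes that end near the stem-loop, and 2.09 times for those that continue. The difference between the kinds was not tested, the kinds differ in class, and annotated ends need not be the ends used in these bones.

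**Figure D4:**
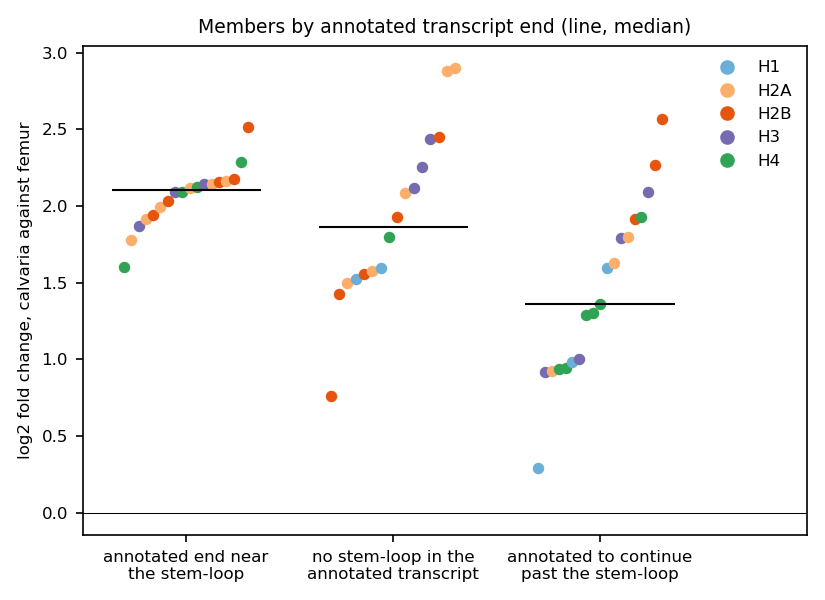
Log2 fold change of calvaria against femur (vertical axis) of each tested gene by the annotated end of its transcript, coloured by class, with lines for medians. Genes that end near the stem-loop lie between 1.60 and 2.51, and those that continue spread from 0.29 to 2.56.

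Fold changes were also set out by promoter motif. Among the 47 tested genes with a promoter, the median log2 fold change was 1.94 in 39 genes with CCAAT and 1.70 in 8 without. It was 2.01 in 30 genes with TATAAA and 1.87 in 17 without, and 1.98 in 10 genes with the octamer and 1.93 in 37 without. For AAACACA it was 1.52 in 5 genes with it and 1.97 in 42 without, and for GGTCCG 1.80 in 11 genes and 1.97 in 36. The last 2 motifs track the H1 and H4 classes, and none of these differences was tested.

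Each calvarial bone was also set against the femur. For frontal against femur 47 genes were called higher and 0 lower (median 1.81), where 27.2% of all tested genes were called higher, 28.5% lower and 55.7% either way. For parietal against femur 48 were called higher and 0 lower (median 2.00), where 27.1% of all tested genes were called higher, 28.6% lower and 55.7% either way. At an unadjusted p under 0.05, 0 were lower in both by edgeR, DESeq2 and limma-voom. By edgeR 30.6% of all tested genes were lower for frontal and 31% for parietal against femur at that threshold. The 2 comparisons share the femur libraries. Hist1h1c, Hist1h4j and Hist2h3c2 were called in neither. Hist1h2af, Hist1h3f and Hist2h4 were not called for the frontal bone, and Hist1h2bq and Hist1h4k not for the parietal bone.

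Frontal and parietal bone did not differ in any clustered gene past the threshold. Of the 53 genes 0 were called in either direction, where 3.91% of all tested genes were called higher and 3.29% lower in the frontal bone, 7.21% in all. That share was 0% in 6 of 19 alternatives, namely with the replicate block, with spike-in scaling and without frontal library 1, femur library 2, parietal library 2 or parietal library 4, so nothing is read from it against the 0 histone genes. The smallest adjusted p was 0.113. At an unadjusted p under 0.05, edgeR had 3 lower and 0 higher, DESeq2 1 lower and 0 higher, and limma-voom 8 lower and 0 higher. By edgeR 14.1% of all tested genes were higher and 14.6% lower at that threshold, so the 3 lower genes lie under that share. The 3 were Hist1h3i (-0.67), Hist1h4n (-0.62) and Hist1h2ac (-0.59), named after their values were seen. The median log2 fold change was -0.32, against -0.02 over all tested genes, and 43 of 53 values were below 0. In 29 genes both parietal libraries lay above all frontal libraries, and in 0 below all of them, where 25.6% of all tested genes had the first pattern and 21.9% the second. The pattern was in 9 of 11 H4 and 9 of 14 H2A genes, and in 2 of 13 H2B genes. With 2 parietal libraries the direction rests on little, and it turned with scaling. Scaled to spike-ins, the median of the histone genes was 0.24 while that of all genes was 0.58, and scaled to osteocyte markers it was 0.02 while that of all genes was 0.31. In both cases the histone genes stayed below the median of all genes. With the length and GC trend removed, their median shrank to -0.13 against 0.02 over all genes, and 20 of 53 values were above 0.

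DNA replication genes are used in the same phase of the cell cycle. Of the 36 listed, all were tested, and 34 were higher and 1 lower in the calvaria (median 1.31), beside 29.6% higher and 31.4% lower over all tested genes. Rfc4, a clamp loader subunit, rose from 15.6, 18.1 and 17.7 CPM in the femur to 72.4, 78.5 and 96.6 in the frontal and 102 and 99.7 in the parietal bone (2.40 ± 0.14, adjusted p = 1.3e-07). Tyms, which makes thymidylate, rose by 2.06 (adjusted p = 2.95e-07), Prim1, a primase subunit, by 2.12 (adjusted p = 8.85e-07), and Rrm1, a ribonucleotide reductase subunit, by 1.76 (adjusted p = 1.18e-06). Cdt1, a licensing factor, was the one lower gene (-0.53, adjusted p = 0.0162), though not without femur library 4 (-0.45, adjusted p = 0.0593) or after the trend on gene length and GC content was removed (0.08, adjusted p = 0.633), and Pold1 did not pass (-0.05, adjusted p = 0.871). Between the calvarial bones, 5 replication genes were called higher in the frontal than in the parietal bone (Mcm3, Rrm2, Lig1, Mcm2 and Pola2), and 0 lower, with a list median of 0.24. The 5 are 13.9% of the list, beside 3.91% higher and 3.29% lower over all tested genes. Rrm2 had the largest of these changes (1.17, adjusted p = 0.0306). All 5 calls were lost with the replicate block, with spike-in scaling and without frontal library 1 or femur library 2. In these fits 0% of all genes were called. All 5 were also lost without frontal library 4, where 2.55% of all genes were called higher and 0.795% lower. With the length and GC trend removed 4 of the 5 were lost, where 0.361% of all genes were called higher and 0.239% lower. The calls were also lost without parietal library 2 or parietal library 4, where 1 parietal library is left. Rrm2 then stood at 1.26 and 1.15, and Mcm3, the smallest of the 5 changes, at 0.58 in both fits.

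The summed replication genes stood at 1291, 1530.0 and 1787 CPM in the femur, 4254, 4017 and 4750.0 in the frontal bone and 3598 and 3466 in the parietal bone. Clustered histone CPM per replication gene CPM was 0.236, 0.267 and 0.276 in the femur, 0.225, 0.221 and 0.204 in the frontal and 0.314 and 0.288 in the parietal bone. The 3 bones did not overlap in this ratio, with the frontal bone lowest and the parietal bone highest. The ratio was not tested.

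**Figure D5:**
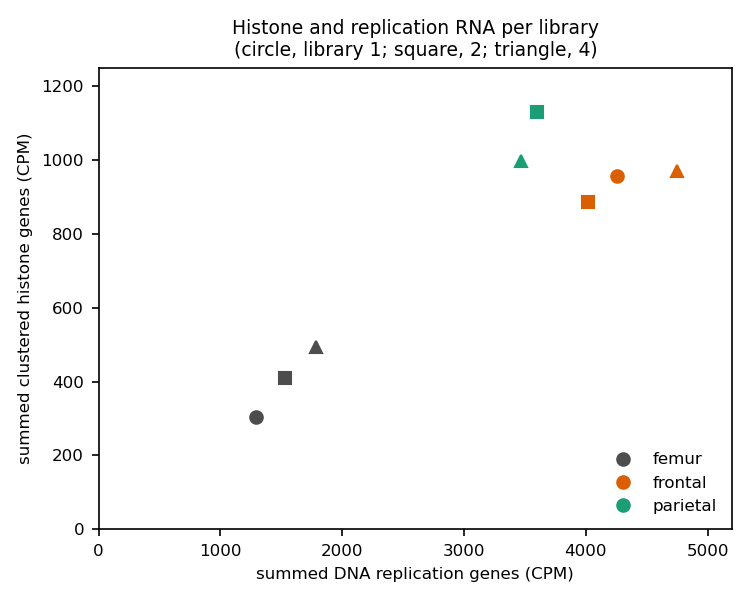
Summed clustered histone genes (vertical axis, CPM) against summed DNA replication genes (horizontal axis, CPM) in each library. The femur libraries lie lowest on both axes, and the parietal libraries have less replication RNA but more histone RNA than the frontal libraries.

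Histone variants listed as made outside S phase moved in both directions, though the listed H2afx also carries a stem-loop. Of the 13 listed, 10 were tested, with 6 higher and 2 lower in the calvaria (median 0.61), beside 29.6% higher and 31.4% lower over all tested genes. Cenpa, the H3 of centromeres, stood at 43.8, 67.7 and 78.9 CPM in the femur, 244, 200.5 and 268 in the frontal bone and 222 and 205 in the parietal bone (1.82 ± 0.19, adjusted p = 7.21e-06). H3f3a, one of a pair of genes for H3.3, stood at 241, 303 and 344 CPM in the femur, 585, 562 and 765 in the frontal bone and 718 and 712 in the parietal bone (1.19 ± 0.15, adjusted p = 3.86e-05). The other, H3f3b, was lower in the calvaria, with 2822, 2654 and 2716 CPM in the femur, 2446, 1950.0 and 2270.0 in the frontal bone and 2177 and 1949 in the parietal bone (-0.35 ± 0.13, adjusted p = 0.0286). The 2 genes encode the same protein. The call of H3f3b was lost in 6 of 18 alternatives. These were the replicate block (-0.33, adjusted p = 0.0669), scaling by library size only (-0.26, adjusted p = 0.0666), spike-in scaling (-1.22, adjusted p = 0.21) and leaving out femur library 2 (-0.38, adjusted p = 0.0623), parietal library 2 (-0.40) or parietal library 4 (-0.33). With the length and GC trend removed, the higher calls of H2afz (0.14, adjusted p = 0.321) and H2afv (0.11, adjusted p = 0.501) were lost. H2afy, for macroH2A, was higher (0.95 ± 0.15, adjusted p = 0.000165), and H2afy2, also for a macroH2A, was lower (-1.30 ± 0.24, adjusted p = 0.000661). H1f0 (0.42 ± 0.17, adjusted p = 0.0505) and H2afx (0.14 ± 0.22, adjusted p = 0.613) did not pass.

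Of 9 regulators of histone gene transcription and S-phase cyclins, 6 were higher and 2 lower (median 0.61), beside 29.6 and 31.4% of all tested genes. The higher ones with the smallest p were the cyclins Ccne2 (1.67 ± 0.14, adjusted p = 1.44e-06), Ccne1 (1.90 ± 0.19, adjusted p = 6.36e-06) and Ccna2 (1.87 ± 0.21, adjusted p = 1.4e-05), and their kinase Cdk2 (0.67 ± 0.15, adjusted p = 0.00239). Npat, the coactivator that cyclin E and Cdk2 phosphorylate at histone gene clusters, was lower, with 41.3, 37.6 and 42.1 CPM in the femur, 17, 27.7 and 13.3 in the frontal bone and 24.2 and 27.6 in the parietal bone (-0.84 ± 0.20, adjusted p = 0.00344). Hinfp, a factor of H4 promoters, was lower too (-0.69 ± 0.17, adjusted p = 0.00378), but not after the length and GC trend was removed (-0.28, adjusted p = 0.156). For Npat all calvarial libraries lay below all femur libraries.

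Of 21 genes for histone messenger RNA 3′ end formation and decay, 7 were called higher and 8 lower (median -0.36). These are 33.3 and 38.1% of the list, near the 29.6 and 31.4% of all tested genes, so the counts are no result about the list. Upf1, a helicase needed for histone mRNA decay, fell from 121, 124 and 111 CPM in the femur to 53.4, 57.1 and 35 in the frontal and 26.3 and 29.1 in the parietal bone (-1.69 ± 0.15, adjusted p = 2.62e-06). Papd5, a poly(A) polymerase, and Srrt, a partner of the cap-binding complex, were also lower (-1.49, adjusted p = 5.54e-06, and -0.90, adjusted p = 5.23e-05). Among the genes that rose were Cpsf3, the nuclease that cuts the transcript (1.15 ± 0.16, adjusted p = 7.47e-05), and Eri1, an exonuclease that trims the stem-loop end (0.86 ± 0.12, adjusted p = 8.26e-05). Slbp, the stem-loop binding protein, stood at 202, 191 and 208 CPM in the femur, 348, 312 and 413 in the frontal bone and 304 and 313 in the parietal bone (0.73 ± 0.12, adjusted p = 0.00024). Cpsf2 (0.59), Zcchc11 (0.42), Ncbp2 (0.37) and Cstf2 (0.44) were the other higher genes. The calls of Zcchc11, Ncbp2 and Cstf2 were each lost without parietal library 4 (0.29, adjusted p = 0.126, 0.31, adjusted p = 0.107, and 0.39, adjusted p = 0.0935) and in other fits. With the length and GC trend removed, Srrt stood at -0.20 (adjusted p = 0.212).

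Of 25 histone chaperones and deposition factors, all tested, 14 were higher and 5 lower (median 0.31), beside 29.6 and 31.4% of all tested genes. Tonsl, which binds newly made H4 at replication forks, Hat1, which acetylates new H4, and Ssrp1, a subunit of the FACT chaperone, were higher, by 1.35 (adjusted p = 1.13e-05), 1.06 (adjusted p = 1.32e-05) and 1.07 (adjusted p = 1.64e-05). Among the 14 higher calls, Nasp was lost in 10 of 18 alternatives, Set in 9, Chaf1a in 6 and Rbbp4 in 4. The remaining higher calls were lost only with spike-in scaling. Ipo4, an importin for H3 and H4, had the smallest p of the list and was lower (-1.70 ± 0.16, adjusted p = 4.27e-06). The other 4 lower genes were Daxx (-1.02), Ubn1 (-0.81), Ubn2 (-0.60) and Rbbp7 (-0.41). Daxx and the Ubn proteins are known for work with H3.3. With the length and GC trend removed, Ubn1 (-0.21, adjusted p = 0.104) and Ubn2 (-0.14, adjusted p = 0.518) did not pass, nor did Ubn2 without femur library 2 (-0.48, adjusted p = 0.101) or parietal library 2 (-0.49, adjusted p = 0.0733).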

How the data were processed

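The authors deposited a table of raw read counts per gene for the 8 libraries, whole numbers with 43346 genes and 92 spike-in controls, and this table was used. A filtered copy and a table of scaled values were not used. Nextera XT libraries were sequenced as 37-base paired ends, per the labels' protocols. The submitters' processing notes name STAR 2.5.2a, edgeR, limma and DESeq2, with GRCm38.p3 and mm10 as builds. Not given in the sources used here are the counting tool, its strand setting and annotation, and its treatment of reads with several matches.

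Genes were named and placed with GENCODE M21 (GRCm38) by identifier, and 884 genes had no symbol. The test was that of edgeR 4.0.16 (R 4.3.3), with filterByExpr (at least 1.09 CPM in 2 or more libraries and 15 counts in all), TMM scaling without spike-ins, and a robust quasi-likelihood fit of 3 bones over all 8 libraries (5 residual degrees of freedom, biological coefficient of variation 18.6%). Standard errors were worked out from each fold change and F statistic, and Benjamini-Hochberg adjustment ran over 15511 genes. Alternatives included limma 3.58.1 (voom), DESeq2 1.42.0, other scalings and filters, summed near-identical genes and leaving out each library. On simulated counts for calvaria against femur over 15288 genes, 88% of 2-fold and 100% of 4-fold changes were recovered, with 8 false calls. The changed genes, 100 for each fold, were drawn from genes with a mean over 5 CPM. These shares therefore do not cover histone genes of lower level. Libraries of a bone differed by more than sampling noise (chi-square divided by its degrees of freedom 7.75 to 39.2).

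Genes given by library were, per class, the 3 with the highest mean CPM and 2 more with the smallest p for calvaria against femur. From each gene list, the 4 with the smallest p and those called against the larger number were named, and others named beside them were chosen after their values were seen. The members and lists were chosen with earlier results of these data known.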

Additional observations from a re-analysis of the deposited data

How the results depend on the processing

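Across 17 alternatives other than spike-in scaling, 43 of the 50 genes called higher in the calvaria kept their call, and 7 lost it at least once (Hist1h2af, Hist1h2bc, Hist1h2bq, Hist1h3f, Hist1h4k, Hist2h4 and Hist3h2a). One of the 17 scaled libraries to osteocyte markers. There 96.7% of all tested genes were called higher in the calvaria (median 3.63), so a call kept in that fit says little. Scaled to spike-ins, 0 histone genes were called higher for calvaria, frontal or parietal against femur, beside 0.226, 0.2 and 0.103% of all tested genes. Values fell below 0 for calvaria in Hist1h1c (-0.55), Hist1h2bc (-0.08) and Hist2h3c2 (0.00 when rounded). For frontal bone they did so in Hist1h1c (-0.36) and Hist1h4j (-0.04). For parietal bone they did so in Hist1h1c (-0.74), Hist1h2bc (-0.35), Hist3h2a (-0.15) and Hist2h3c2 (-0.08). That scaling also ended all 35 calls of replication genes. With the length and GC trend removed, Hist1h4j (-0.01, frontal) and Hist1h2bc (-0.16, parietal) fell below 0. The cause was not tested. With near-identical copies summed, 24, 23 and 23 of 26 features were higher, since fewer features were tested. Of everything tested in that fit, 29, 27.2 and 26.1% were higher. Leaving out each femur or frontal library in turn gave 47 to 50 genes higher for calvaria, 44 to 48 for frontal and 46 to 49 for parietal against femur. In these fits 0 were lower. Of all tested genes, 25.8 to 29.9%, 23.2 to 26.7% and 24.1 to 28.1% were higher. Where 1 parietal library was left, it was assumed to vary like the other bones. The median for calvaria against femur was then 1.85 without parietal library 2 and 1.95 without parietal library 4. With the replicate block, 49 genes were higher for calvaria against femur, without Hist1h3f (0.99, adjusted p = 0.0863), beside 27.8% of all tested genes. Same-numbered libraries had deviations that correlated at -0.103 to 0.145, and 2 of 8 libraries correlated best with their own number. Libraries of other numbers correlated at -0.145 to 0.172. With so few libraries per bone these deviations are tied to each other, and those of the parietal pair are mirror images. The correlations therefore cannot show whether equal numbers mark a shared animal. After the trend on length and GC content was removed, 46 genes were higher, beside 31.8% of all tested genes. DESeq2 and limma-voom each gave 49, beside 28.9 and 29.6% of all tested genes. For frontal against parietal, every alternative run gave 0 calls. Genes with few counts, such as Hist1h4k with 76 over all libraries, are limited by depth.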
